A study of Mus musculus with 48 samples.

Results

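The genes of cholesterol synthesis and the genes known as targets or partners of SREBP2 were followed in RNA-seq libraries of whole mouse liver. The set holds 28 genes that were picked by name from the pathway, and all 28 were found among the 29221 genes of the joined count tables. Earlier results of these data were known when the genes were chosen, a limit on setting their counts beside shares over all genes. It covers 7 enzymes from acetyl-CoA to farnesyl pyrophosphate, the side branch enzyme Ggps1, 3 enzymes from squalene to lanosterol, 8 enzymes from lanosterol to cholesterol, 4 regulators, 2 sterol carriers or binding proteins, and 3 enzymes of acetate, ketone and cobalamin metabolism. All 28 passed the filter on low counts in each of the 13 comparisons of 2 groups.

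The 48 livers came from mice with a floxed Pparg gene. Every mouse was given an AAV8 vector with the hepatocyte promoter TBG after 16 weeks on diet: mice labelled knockout received Cre, and controls received the null vector, so virus exposure was common to all groups. Females were fed a low fat diet (LF) for 34 weeks, a high fat diet (HF) for 34 weeks, or HF for 18 weeks and then, for 16 weeks, a high fat diet that also held cholesterol and fructose (HFCF). Males were fed HF or HF followed by HFCF, on the same schedule. Each of the 4 male groups had 6 animals and each of the 6 female groups had 4, with female HFCF controls numbered 1, 2, 3 and 5. Strain and exact age are not given in the sources used here. The labels call LF mice healthy and name liver steatosis for HF mice and non-alcoholic steatohepatitis for HFCF mice.

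Cholesterol is built from acetyl-CoA through mevalonate, isoprenoid pyrophosphates and squalene, then through lanosterol and a series of demethylations, reductions and isomerisations. SREBP2, encoded by Srebf2, is a membrane-bound transcription factor that the escort protein SCAP carries from the endoplasmic reticulum to the Golgi when sterols are scarce, where its active part is cut free. INSIG1 and INSIG2 hold the SCAP and SREBP complex in the endoplasmic reticulum when sterols are plentiful. The liver is a main site of this synthesis, and dietary cholesterol is a classical repressor of it.

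Reference promoter windows are shown first for 5 genes that stand at different points of the data: Hmgcs1 at the head of the pathway, Idi1 and Msmo1 with large dietary differences, Mvk because it shares its promoter with another gene of the set, and Insig2 because it moved the other way. Insig2 has 3 start sites in the table, and the window shown is the one at the gene start of the count files, while the other 2 windows hold neither motif marked here. Each window runs from 250 bases before to 50 bases after the start site (RefSeq, GRCm38.p6), 5′ to 3′ on the strand of the gene. Capitals mark CCAAT, the box bound by NF-Y, read as ATTGG where it lies on the other strand, and TCACNCCAC, a sterol regulatory element core.
Hmgcs1 (chr13:119690101-119690400, plus strand): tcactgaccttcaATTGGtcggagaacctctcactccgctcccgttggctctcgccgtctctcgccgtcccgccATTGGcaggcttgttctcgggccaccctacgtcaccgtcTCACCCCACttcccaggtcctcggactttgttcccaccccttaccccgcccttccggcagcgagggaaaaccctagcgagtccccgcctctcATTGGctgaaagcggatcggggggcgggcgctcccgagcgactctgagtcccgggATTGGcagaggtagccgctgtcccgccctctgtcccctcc
Idi1 (chr13:8885356-8885655, plus strand): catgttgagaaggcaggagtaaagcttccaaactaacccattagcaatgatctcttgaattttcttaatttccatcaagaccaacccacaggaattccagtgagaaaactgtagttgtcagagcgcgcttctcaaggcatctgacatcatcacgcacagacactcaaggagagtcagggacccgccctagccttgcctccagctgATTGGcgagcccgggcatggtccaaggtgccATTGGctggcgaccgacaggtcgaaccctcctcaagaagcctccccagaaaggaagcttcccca
Msmo1 (chr8:64733529-64733828, minus strand): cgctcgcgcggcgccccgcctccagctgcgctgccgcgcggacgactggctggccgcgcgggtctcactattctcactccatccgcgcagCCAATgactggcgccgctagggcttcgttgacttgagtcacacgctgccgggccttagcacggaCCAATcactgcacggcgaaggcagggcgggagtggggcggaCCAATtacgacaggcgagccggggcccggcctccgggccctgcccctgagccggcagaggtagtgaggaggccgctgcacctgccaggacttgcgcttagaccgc
Mvk (chr5:114444019-114444318, plus strand): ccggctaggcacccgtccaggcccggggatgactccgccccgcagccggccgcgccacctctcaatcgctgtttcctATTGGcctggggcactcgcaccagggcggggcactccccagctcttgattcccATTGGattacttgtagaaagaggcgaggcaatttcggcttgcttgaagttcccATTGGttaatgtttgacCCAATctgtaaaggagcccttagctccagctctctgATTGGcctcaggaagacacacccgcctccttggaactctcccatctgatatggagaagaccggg
Insig2 (chr1:121332540-121332839, minus strand): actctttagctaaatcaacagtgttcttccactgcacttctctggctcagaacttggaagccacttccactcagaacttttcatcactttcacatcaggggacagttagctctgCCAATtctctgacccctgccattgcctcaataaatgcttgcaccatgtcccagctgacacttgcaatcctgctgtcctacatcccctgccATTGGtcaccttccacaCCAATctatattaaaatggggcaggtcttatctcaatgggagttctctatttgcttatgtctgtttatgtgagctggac

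A window was found for 24 of the 28 genes, in 30 windows because some genes have several start sites, and not for Fdft1, Fdps, Sqle and Stard4. CCAAT, searched on both strands, occurred in 21 of the 30 windows and in 21 of the 24 genes, against 37.4% of all 32851 windows of the same length. TCACNCCAC occurred in 1 window, that of Hmgcs1, at position -137 from the start site, against 1.24% of all windows. A looser core, TCACNNCAC, chosen after seeing the data, occurred in 4 of the 30 windows, each of another gene, against 3.77% of all windows. Its sites are printed with 10 flanking bases on each side and the core in capitals.
Hmgcs1 (chr13:119690204-119690232, plus strand): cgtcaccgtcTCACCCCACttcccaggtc
Msmo1 (chr8:64733652-64733680, minus strand): cacggaccaaTCACTGCACggcgaaggca
Hsd17b7 (chr1:169969304-169969332, minus strand): tcggcctatcTCACCTCACccggtctggg
Dhcr7 (chr7:143823259-143823287, plus strand): ggaaaagggcTCACTTCACcttatagctc
In Msmo1 the looser core overlaps a CCAAT box. Dhcr7 has several start sites, and its site lies in the window at chr7:143823149-143823448, downstream of the gene start of the count files (143823145). Mvk, the kinase that phosphorylates mevalonate, and Mmab, an enzyme that makes adenosylcobalamin, lie head to head on chromosome 5. Their start sites are 242 bases apart and their windows share 259 bases (chr5:114444019-114444277). These matches describe letters in a window, and no binding was measured here.

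Levels differed widely along the pathway. Per kilobase of transcript, in the FPKM that the authors deposited, Sc5d, the sterol desaturase near the end of the pathway, had the highest group median among the 28 genes in male HF controls at 145. Insig1 followed at 127 and Hmgcs1, which makes HMG-CoA, came next at 94.3. At the low end stood Lss, the cyclase that makes lanosterol, at 8.26, Fdps, the farnesyl pyrophosphate synthase, at 4.52, and Ggps1, which makes geranylgeranyl pyrophosphate, at 2.19. Fdps and Ggps1 were the 2 lowest genes in each of the 10 groups. Among all 10 groups, the median level in CPM (counts scaled to library size with TMM factors) was highest in a male HF group for 19 of the 28 genes, 12 in controls and 7 in labelled knockouts. It was lowest in male HFCF controls for 20 genes. Fdft1 shares its locus with Ctsb, Cyp51 with Akap9, Ggps1 with Arid4b and Acss2 with Gss; the libraries do not keep strand, so reads of overlapping partners could be mixed in these 4. Acat2 has a close paralog, Acat3, and Fdps has processed copies, and how shared reads were assigned is not given in the sources used here.

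**Figure D1:**
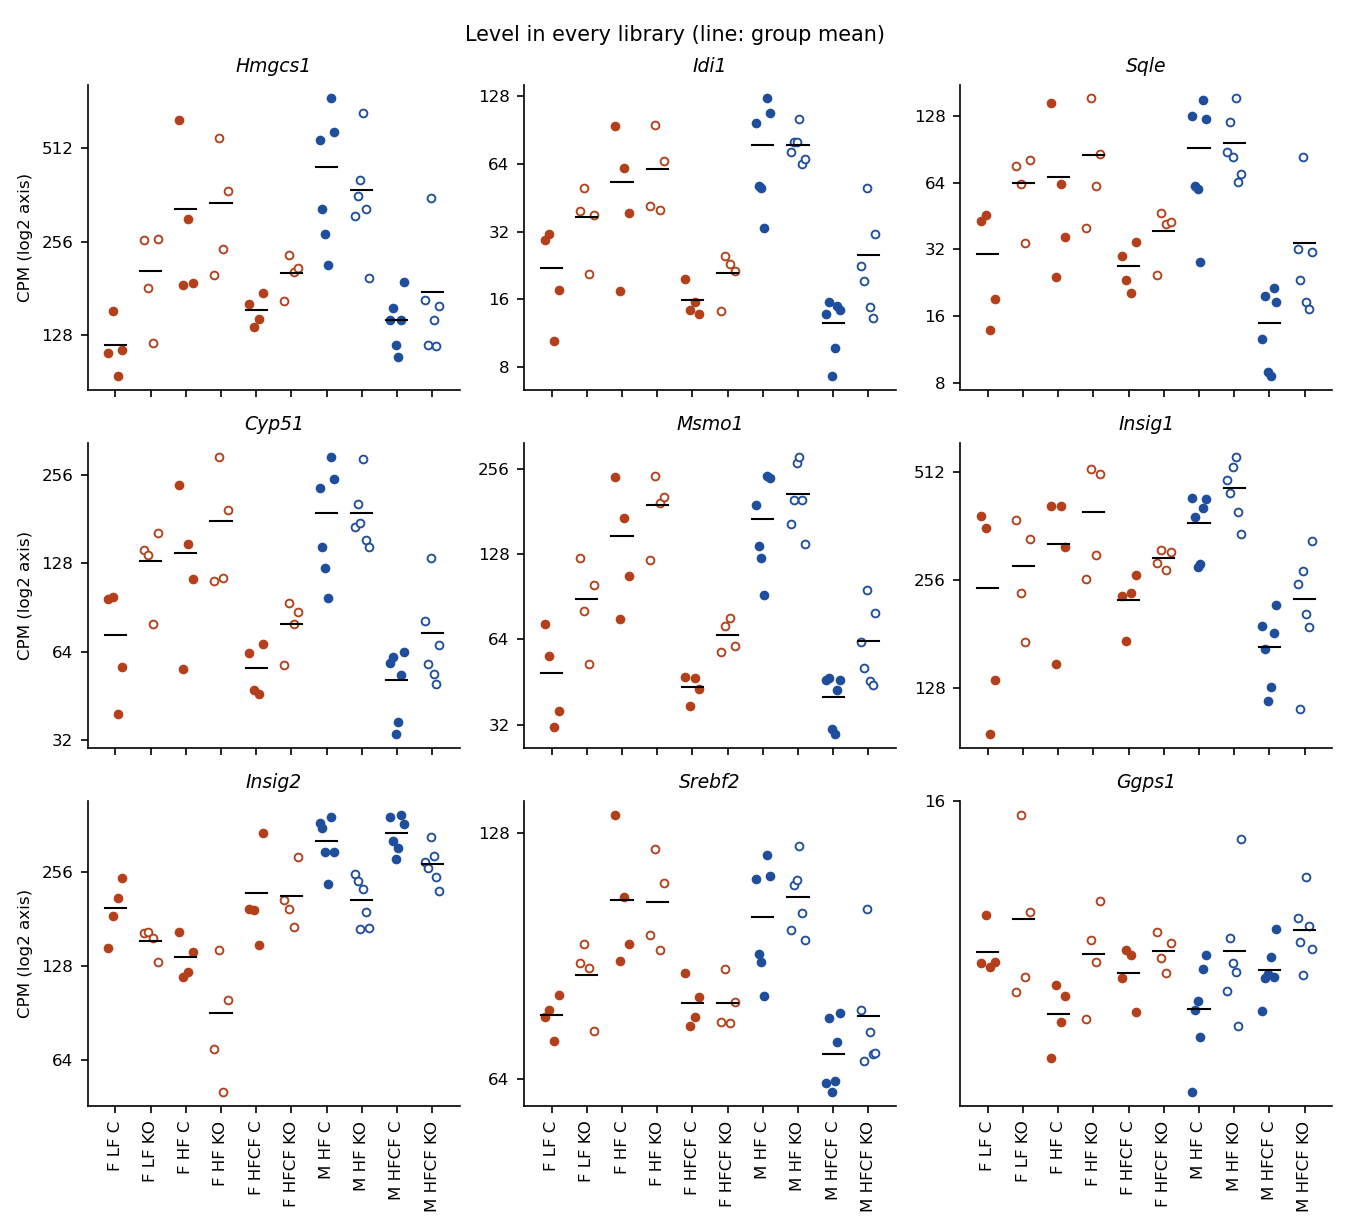
Level of 9 genes in every library, in CPM on log2 axes that differ between panels, by group (F, female; M, male; C, control; KO, labelled knockout); points are livers and lines are group means. For Idi1 the highest male HFCF control lies at 15.6 CPM and the lowest male HF control at 33.3 CPM, while Ggps1 spans a narrow range in all groups.

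The libraries held 15338239 to 22072884 reads on genes, of which the 28 genes took between 0.184% and 0.547%. Pparg, the targeted gene, was not lower in any group labelled knockout. Its log2 change against controls was 0.26 (SE 0.19) in HF males, 0.81 (SE 0.11, adjusted p = 0.000805, edgeR) in HFCF males, 0.57 (SE 0.27) in LF females, 0.64 (SE 0.22) in HF females and 0.97 (SE 0.13, adjusted p = 0.0422, edgeR) in HFCF females. Which exons are floxed is not given in the sources used here, and the counts are summed over the whole gene, so this check of the labels has limits. The groups are therefore called labelled knockout. Albumin and the other 4 hepatocyte markers were abundant in all libraries, and the 2 adipose markers and 1 pancreas marker that were found had summed levels of at most 0.134 CPM.

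In control males the HFCF diet went with lower mRNA of nearly the whole pathway. Of the 28 genes, 25 were lower on HFCF than on HF and 0 were higher at an adjusted p under 0.05 in edgeR's quasi-likelihood test, where 9.31% of all 14475 genes tested were lower and 13% higher. The median log2 change of the 28 genes was -1.15, against 0.01 over all genes tested. In 17 genes every HFCF liver lay below every HF liver, and in 0 above, where 4.47% of all genes had groups that did not overlap. Because whole liver was measured, fewer cells of a type and less RNA per cell cannot be told apart. By step, the median log2 change was -1.63 from acetyl-CoA to farnesyl pyrophosphate, -1.38 from squalene to lanosterol and -1.25 from lanosterol to cholesterol.

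Idi1 (chr13:8885501-8892451), which interconverts the isoprenoid building blocks, ran from 33.3 through a median of 74.2 to 125 CPM in male HF controls and from 7.32 through 14.1 to 15.6 CPM on HFCF. The groups did not overlap, and the log2 change was -2.61 (SE 0.31, adjusted p = 0.000235). Sqle (chr15:59315077-59331192), squalene epoxidase, a rate-limiting step after the mevalonate part, ran from 28.1 through 92.9 to 150.1 CPM on HF and from 8.63 through 15.6 to 21.4 CPM on HFCF. Its log2 change was also -2.61 (SE 0.37, adjusted p = 0.00083), and the groups did not overlap. Msmo1 (chr8:64718139-64733792), a C4 sterol methyl oxidase, ran from 91.5 through 163 to 240.3 CPM on HF and from 29.6 through 44.1 to 46.6 CPM on HFCF, a log2 change of -2.07 (SE 0.22, adjusted p = 0.000122). Every HFCF liver was below every HF liver for Msmo1 too. Mvd, the decarboxylase that ends the mevalonate part, ran from 14.5 through 35.4 to 51.1 CPM on HF and from 6.25 through 8.83 to 10.1 CPM on HFCF, with no overlap and a log2 change of -2.003 (SE 0.29, adjusted p = 0.000887). For Fdps, the values ran from 9.78 through 19.1 to 28.5 CPM and from 2.44 through 4.23 to 10.8 CPM, so the groups overlapped, and the log2 change was -1.92 (SE 0.35, adjusted p = 0.00243).

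All 7 enzymes from acetyl-CoA to farnesyl pyrophosphate were lower in these males, with log2 changes from -0.87 for Acat2, which condenses acetyl-CoA, to the -2.61 of Idi1. All 3 enzymes from squalene to lanosterol and all 8 from lanosterol to cholesterol were lower. In that last part the changes ran from -0.40 for Ebp, the sterol isomerase, to the -2.07 of Msmo1, and Cyp51, the lanosterol demethylase, stood at -1.89. Of the regulators Insig1 (-1.13), Srebf2 (-0.55) and Scap (-0.36) were lower. The cholesterol carrier Stard4 (-1.19), the sterol-binding protein Tmem97 (-0.42), the acetoacetyl-CoA synthetase Aacs (-0.81) and Mmab (-0.77) were lower as well. The 3 genes that were not called were Insig2 (0.09, SE 0.12), Ggps1 (0.12, SE 0.08) and the acetyl-CoA synthetase Acss2 (-0.58, SE 0.26, adjusted p = 0.118).

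**Figure D2:**
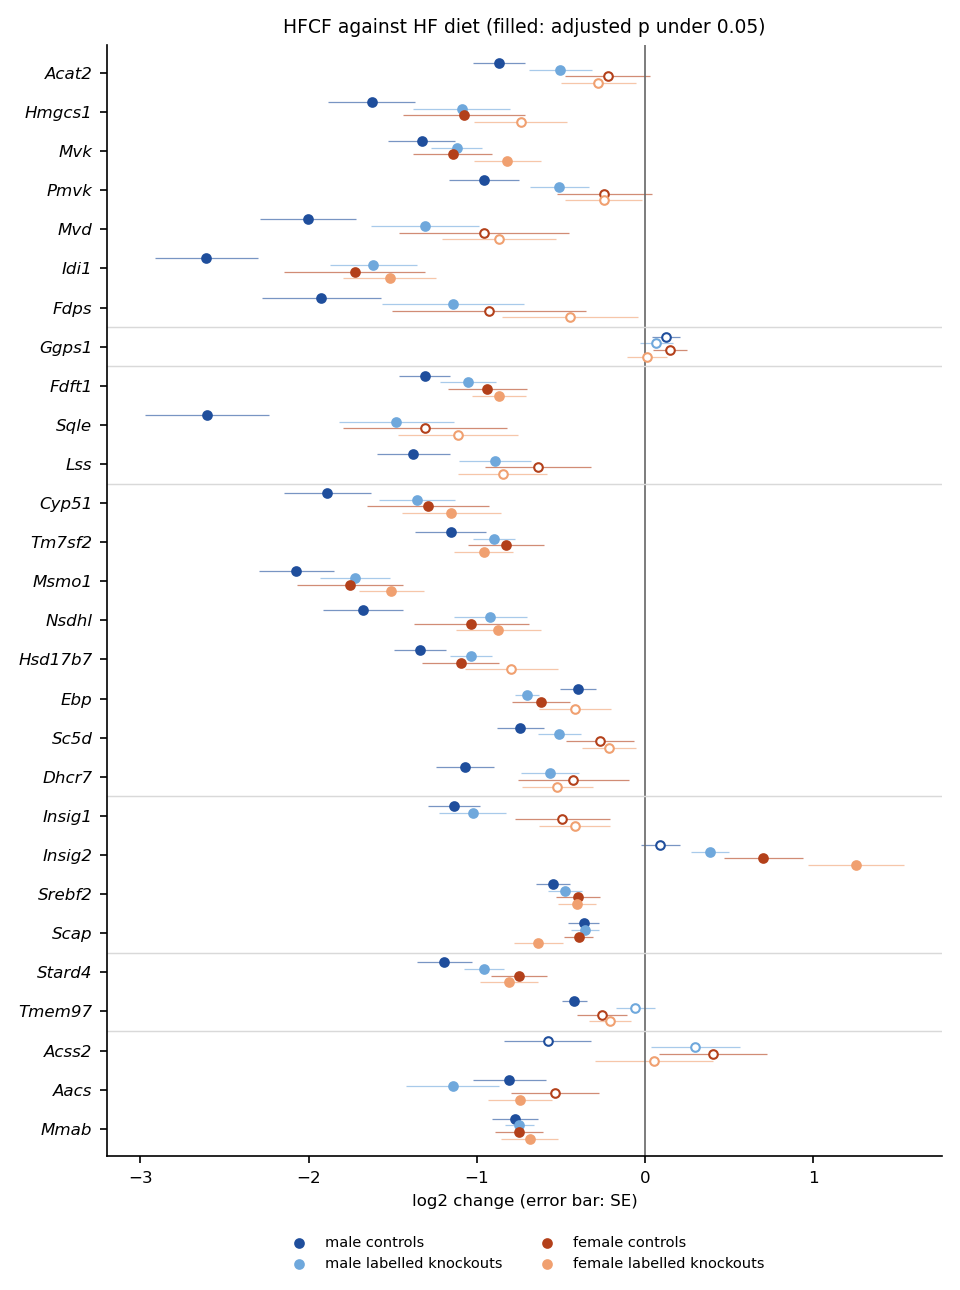
Log2 change of each gene from HF to HFCF in the 4 pairs of groups, with the standard error; filled points passed an adjusted p under 0.05 and grey lines divide the steps of the pathway. Idi1 and Sqle reach -2.61 in control males, Ggps1 stays between 0.01 and 0.15, and Insig2 is the one gene called higher, in 3 of the 4 pairs.

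Among males labelled knockout, 24 genes were lower and 1 was higher on HFCF, where 20% of all 14314 genes tested were lower and 21.6% higher. Over the 28 genes, the median log2 change was -0.91, against -0.02 over all genes. In 12 of the 28 genes every HFCF liver lay below every HF liver, where 18.8% of all genes did not overlap. The changes of Msmo1 (-1.73, SE 0.21, adjusted p = 1.78e-05), Idi1 (-1.61, SE 0.26, adjusted p = 0.000167), Sqle (-1.48, SE 0.34, adjusted p = 0.0028), Cyp51 (-1.36, SE 0.23, adjusted p = 0.000243) and Mvd (-1.31, SE 0.32, adjusted p = 0.00426) led. Msmo1 ran from 138 through 199 to 282 CPM on HF and from 44.2 through 56.5 to 95.3 CPM on HFCF, and Idi1 from 64.0 through 75.9 to 102 CPM and from 13.3 through 20.9 to 49.9 CPM. Neither overlapped. Sqle ran from 64.1 through 85.6 to 153 CPM on HF and from 17.3 through 27.3 to 83.6 CPM on HFCF. Mvd ran from 23.7 through 30.8 to 67.0 CPM and from 7.35 through 12.5 to 29.02 CPM. For Sqle and Mvd the groups overlapped, through HFCF replicate 3, the highest liver of its group for 17 genes. Cyp51 ran from 146 through 173 to 289 CPM and from 49.6 through 62.6 to 133 CPM, with no overlap.

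Insig2 was the gene that was higher in these males, with a log2 change of 0.39 (SE 0.12, adjusted p = 0.0139) and values from 168 through 207 to 253 CPM on HF and from 223 through 269 to 330.5 CPM on HFCF, so the groups overlapped. Not called were Ggps1, Tmem97 (-0.06, SE 0.12) and Acss2 (0.30, SE 0.26). Ggps1 lies on the branch to protein prenylation, off the route to cholesterol.

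In control females fewer genes were called, mostly in the same direction. On HFCF 14 genes were lower and 1 was higher, where 13.8% of all 14701 genes tested were lower and 16.9% higher, with a median log2 change of -0.69 against -0.02 over all genes. In 9 genes every HFCF liver was below every HF liver, where 29.6% of all genes did not overlap. The share of the set without overlap was thus near that of all genes. Msmo1 measured 239, 75.4, 172 and 107 CPM in HF replicates 1 to 4 and 46.9, 37.3, 46.9 and 42.7 CPM in HFCF replicates 1, 2, 3 and 5, a log2 change of -1.75 (SE 0.31, adjusted p = 0.00656). The groups were apart, although HF replicate 2 stood well below the other HF livers. Idi1 measured 94.4, 17.5, 61.6 and 38.6 CPM on HF and 19.7, 14.3, 15.5 and 13.8 CPM on HFCF (log2 change -1.73, SE 0.42, adjusted p = 0.0162). Here HF replicate 2 fell within the HFCF range.

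Cyp51 behaved like Idi1, at 237, 55.9, 148 and 113 CPM on HF and 63.2, 47.4, 46.1 and 67.8 CPM on HFCF (log2 change -1.29, SE 0.36, adjusted p = 0.0264), and its groups overlapped. Mvk measured 39.7, 17.004, 27.7 and 22.01 CPM on HF and 11.8, 11.3, 11.05 and 13.5 CPM on HFCF, with no overlap (log2 change -1.14, SE 0.23, adjusted p = 0.0093). Hsd17b7, a sterol ketoreductase, measured 149, 64.9, 90.4 and 83.3 CPM and 52.2, 45.0, 42.1 and 40.2 CPM, again with no overlap (log2 change -1.10, SE 0.23, adjusted p = 0.00986). Of the 8 genes of the lanosterol part 6 were lower, and those not called were Sc5d (-0.27, SE 0.20) and Dhcr7 (-0.43, SE 0.33), which reduces the last intermediate to cholesterol. Of the 7 genes up to farnesyl pyrophosphate 3 were called (Hmgcs1, Mvk and Idi1), and 1 of the 3 between squalene and lanosterol (Fdft1, squalene synthase). Sqle missed the threshold at -1.31 (SE 0.49, adjusted p = 0.066) with 146, 24.0, 63.3 and 36.4 CPM on HF and 29.8, 23.4, 20.5 and 34.4 CPM on HFCF, a wide spread on HF.

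Insig2 was higher in control females on HFCF, at 165, 118, 122 and 141 CPM on HF and 194, 193, 149 and 342 CPM on HFCF (log2 change 0.70, SE 0.23, adjusted p = 0.0462). The groups overlapped, replicate 5 on HFCF stood far above the rest, and without it the change was 0.41 (adjusted p = 0.0792). Insig1 was the regulator not called (-0.49, SE 0.28). The number of genes called in control females rested on single livers: it was 8 without HFCF replicate 1, 8 without HFCF replicate 2, 7 without HFCF replicate 5 and 8 without HF replicate 3. The 7 genes called with each liver left out in turn were Mvk, Idi1, Msmo1, Hsd17b7, Scap, Stard4 and Mmab.

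Among females labelled knockout 12 genes were lower and 1 was higher on HFCF, where 6.01% of all 14650 genes tested were lower and 8.44% higher. For the set, the median log2 change was -0.71 against -0.01 over all genes. In 10 genes every HFCF liver was below every HF liver and in 1 above, where 19.4% of all genes did not overlap. Idi1 measured 41.4, 95.1, 40.1 and 65.7 CPM on HF and 14.2, 24.9, 23.0 and 21.3 CPM on HFCF (log2 change -1.52, SE 0.28, adjusted p = 0.00789). Msmo1 measured 122, 241, 194 and 203 CPM on HF and 57.5, 71.3, 76.0 and 60.8 CPM on HFCF (log2 change -1.51, SE 0.19, adjusted p = 0.00237). Both sets of livers were apart.

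Insig2 was the gene with every HFCF liver above the HF livers, at 69.6, 143, 50.5 and 99.2 CPM on HF and 207, 195, 169.8 and 285 CPM on HFCF (log2 change 1.25, SE 0.29, adjusted p = 0.0186). Without HFCF replicate 4 the change was 1.08 (adjusted p = 0.0577), and without HF replicate 1 it was 1.17 (adjusted p = 0.0558). Cyp51 measured 111, 294, 114 and 194 CPM and 57.7, 93.6, 79.6 and 87.1 CPM (log2 change -1.15, SE 0.29, adjusted p = 0.0288). Tm7sf2, a sterol C14 reductase, measured 141, 224, 144 and 187 CPM and 115, 76.4, 89.1 and 75.6 CPM (log2 change -0.96, SE 0.18, adjusted p = 0.00849). Neither gene had overlapping groups. Insig1 (-0.42, SE 0.21) and Acss2 (0.05, SE 0.35) were the uncalled genes of steps that were mostly called. The count of 13 called genes was 7 without HFCF replicate 2, 6 without HFCF replicate 3, 6 without HFCF replicate 4, 7 without HF replicate 2 and 6 without HF replicate 4. Idi1, Fdft1, Tm7sf2 and Msmo1 were called with each liver left out in turn.

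Across the 4 pairs of groups, which share no liver, 11 genes were lower on HFCF in all 4: Mvk, Idi1, Fdft1, Cyp51, Tm7sf2, Msmo1, Nsdhl, Srebf2, Scap, Stard4 and Mmab. Of these 11, Idi1 and Msmo1 kept the call in all 4 pairs with each liver left out in turn. The others on the list lost it in either or both female pairs when a single liver was left out. In control females 0 of the 15 calls held under every alternative fit. Nsdhl is the C4 sterol dehydrogenase that works with Msmo1 and Hsd17b7. Hmgcs1, Hsd17b7, Ebp and Aacs were lower in 3 pairs. Another 9 genes were lower in 2 pairs, and for these (Acat2, Pmvk, Mvd, Fdps, Sqle, Lss, Sc5d, Dhcr7 and Insig1) the 2 pairs were the male ones. Ggps1 and Acss2 were called in no pair.

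The change on HFCF was larger in males than in females for most genes, but no gene passed the test of that difference. In controls the interaction of diet and sex had a median log2 value of -0.51, with 26 of 28 genes more negative in males. By edgeR 0 genes were called, where 0.00646% of all 15491 genes tested were called, and by DESeq2 0. Unadjusted p was under 0.05 for 3 of the 28 genes and for 2561 of all 15491 genes, so the share of the set was not above that of all genes. The 3 were Insig2 (-0.60, SE 0.25), Acss2 (-0.98, SE 0.44) and Acat2 (-0.64, SE 0.30). For Idi1 the interaction was -0.88 (SE 0.54) and for Sqle -1.30 (SE 0.63, adjusted p = 0.308). Replicate 1 of the female HF controls was the highest liver of its group for 22 genes. Without it 4 genes were called, and the share over all genes in that fit is not given here. Its macrophage marker sum was 95.3 CPM, against 26.5 to 56.9 CPM in the other HF controls. Its stellate cell sum was 388 against 100 to 153 CPM, and its cholangiocyte sum 28.2 against 8.47 to 9.64 CPM. This liver also enters the comparisons of female HF controls with HFCF, LF and labelled knockouts. The part of these markers was not tested. In mice labelled knockout the median was -0.18. By edgeR or DESeq2 0 genes were called, where 0.013% of all 15400 genes were called by edgeR. Insig2 was the 1 gene with an unadjusted p under 0.05 (-0.84, SE 0.29, adjusted p = 0.285). Of all genes 1829 had such a p, so the share of the set was not above that of all genes.

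Markers of other cells and of daily rhythm moved with the diet. In control males the summed level of 5 hepatocyte markers ran from 58644 to 81902 CPM on HF and from 36866 to 59522 CPM on HFCF, with 2 of 5 lower. All 6 macrophage markers were higher, with sums of 61.7 to 99.0 CPM on HF and 88.8 to 316 CPM on HFCF. All 4 cholangiocyte markers were higher (12.5 to 21.6 against 16.9 to 71.0 CPM), as were 4 of 6 stellate cell markers (219 to 343 against 266 to 486 CPM). None of the defining markers of these lists was at 0. Of 10 clock genes 6 were lower and 1 was higher, Ciart at -1.30 (SE 0.33, adjusted p = 0.012) and Arntl at 1.07 (SE 0.31, adjusted p = 0.0243). In control females 3 of 5 hepatocyte markers were lower, with sums of 86819 to 102936 CPM on HF and 51939 to 64291 CPM on HFCF, and all 6 macrophage and all 4 cholangiocyte markers were higher. In labelled knockouts 4 of 5 hepatocyte markers in males and 0 in females were lower, 6 and 4 of the macrophage markers and 4 and 4 of the cholangiocyte markers were higher, and 9 and 6 of 10 clock genes were lower. Blood markers, 4 of 4, were lower in labelled knockout males. Their part in the result was not tested. The median log2 change of the hepatocyte markers was -0.21 in control males and -0.66 in control females, against -1.15 and -0.69 for the 28 genes. The medians of these markers in labelled knockouts are not given here. In labelled knockout males their sums ran from 85736 to 100495 CPM on HF and from 51907 to 62149 CPM on HFCF. In labelled knockout females they ran from 94265 to 116574 CPM and from 59131 to 105836 CPM.

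In females HF was also set against LF. By edgeR 0 of the 28 genes were called in controls, where 0.696% of all 14216 genes tested were called. An unadjusted p under 0.05 was found for 10 of the 28 genes and for 2314 of all genes. DESeq2 called 8, all higher on HF, and its share over all genes is not given here. Over the 28 genes, the median log2 change was 0.54 against -0.00 over all genes, and 21 of 28 values were positive. The 3 genes with the smallest p were Msmo1, Mmab and Mvk. Msmo1 measured 72.4, 55.8, 31.3 and 35.9 CPM on LF against the HF values given above, with every HF liver higher (log2 change 1.59, SE 0.38, adjusted p = 0.0904). Mmab measured 23.9, 30.4, 17.9 and 25.7 CPM on LF and 44.5, 29.6, 46.0 and 44.0 CPM on HF (log2 change 0.74, SE 0.18, adjusted p = 0.0928). Mvk measured 13.7, 17.1, 11.5 and 10.5 CPM on LF (log2 change 1.01, SE 0.26, adjusted p = 0.103). For both, HF replicate 2 overlapped the LF livers. The HF livers lay wholly above LF for 4 genes (Hmgcs1, Msmo1, Hsd17b7 and Srebf2) and wholly below for Ggps1, where 10.0% of all genes did not overlap. Without that liver 1 gene was called, Tmem97. Clock genes moved in the same comparison: 2 of 10 were higher and 1 was lower, with Per3 at 0.998 (SE 0.09, adjusted p = 0.00329) and Arntl at -1.79 (SE 0.32, adjusted p = 0.0423), and their sums ran from 861 to 894 CPM on LF and from 1012 to 1265 CPM on HF, without overlap. Their part in the result was not tested. In the authors' deposited table, adjusted p was under 0.05 for 7 of the 28 genes in this comparison, and their share over all genes is not given here. All 7 were higher: Hmgcs1, Mvk, Fdft1, Msmo1, Srebf2, Tmem97 and Mmab.

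In females labelled knockout the same diet comparison had 0 genes called by edgeR, where 0.155% of all 14214 genes were called. An unadjusted p under 0.05 was found for 6 of the 28 genes and for 1902 of all genes. DESeq2 called 1, and its share over all genes is not given here. For the set, the median log2 change was 0.24. Msmo1 measured 123, 80.3, 52.3 and 99.3 CPM on LF and 122, 241, 194 and 203 CPM on HF (log2 change 1.09, SE 0.26, adjusted p = 0.117), so 1 HF liver lay among the LF values. Insig2 measured 163, 165, 158 and 131 CPM on LF (log2 change -0.77, SE 0.25, adjusted p = 0.213), and 1 HF liver lay within that range. Fdft1 measured 157, 98.5, 87.7 and 135 CPM on LF against 141, 232, 159 and 197 CPM on HF (log2 change 0.60, SE 0.21, adjusted p = 0.238), with overlap. In 0 of the 28 genes were the groups apart, where 8.22% of all genes did not overlap.

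HFCF was also set against LF in females. In control females 4 genes were lower and 0 higher, where 16.8% of all 14755 genes tested were lower and 18.4% higher. The share of the set called was thus not above that of all genes. The 4 were Tm7sf2 (-1.07, SE 0.25, adjusted p = 0.00903), Ebp (-0.82, SE 0.17, adjusted p = 0.00474), Scap (-0.49, SE 0.09, adjusted p = 0.00325) and Hsd17b7 (-0.40, SE 0.12, adjusted p = 0.0217). Ebp measured 271, 252, 187 and 237 CPM on LF and 133, 103, 168 and 137 CPM on HFCF, and Tm7sf2 164, 179, 74.2 and 137 CPM against 71.9, 54.9, 83.0 and 58.5 CPM, with 1 LF liver within the HFCF range. Scap measured 139, 165, 149.7 and 142 CPM on LF and 108, 103, 118 and 98.8 CPM on HFCF. Ebp and Scap were the 2 genes with no overlap, where 33.8% of all genes did not overlap, a share above that of the set. The median log2 change of the 28 genes was -0.15, against -0.02 over all genes, and Msmo1 stood at -0.19 (SE 0.24) and Idi1 at -0.50 (SE 0.30). In females labelled knockout 5 genes were lower, where 3.74% of all 14614 genes tested were lower and 8.26% higher: Tm7sf2 (-1.02, SE 0.21), Nsdhl (-0.71, SE 0.20), Hsd17b7 (-0.67, SE 0.20), Scap (-0.55, SE 0.15) and Stard4 (-0.47, SE 0.14). Tm7sf2 measured 178, 159, 133 and 260.1 CPM on LF and 115, 76.4, 89.1 and 75.6 CPM on HFCF, and Hsd17b7 87.0, 99.7, 74.4 and 69.8 CPM against 34.0, 63.3, 59.9 and 46.9 CPM. Stard4 measured 124, 150.1, 119.6 and 109 CPM on LF and 87.3, 95.1, 98.3 and 76.0 CPM on HFCF. These 3 genes, Scap and Mmab lay wholly below LF on HFCF and Insig2 wholly above, where 17.1% of all genes did not overlap. The share of the set without overlap was near that of all genes. The livers did overlap for Nsdhl, at 63.8, 67.3, 37.8 and 81.5 CPM against 33.4, 37.6, 39.6 and 40.2 CPM. The 2 comparisons with LF share their LF or HFCF livers with the comparisons above. Hsd17b7 in control females lost its call without HFCF replicate 2, 3 or 5 or LF replicate 2 or 3. In the labelled knockouts the count was 1 without HFCF replicate 2, 3 or 4 or LF replicate 1 or 2, and 8 without LF replicate 3. Macrophage markers moved here too: all 6 were higher on HFCF than on LF in controls (184.8 to 323 against 33.9 to 81.9 CPM in sum) and all 6 in labelled knockouts (114 to 257 against 34.4 to 57.8 CPM), with 4 and 1 of 5 hepatocyte markers lower. Their part in the result was not tested.

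The effect of the knockout label was asked within each sex and diet. In HF males 1 gene was higher and 3 were lower, where 8.57% of all 14041 genes tested were higher and 9.88% lower, so the share of the 28 genes called was near that of all genes. Ebp ran from 138 through 158 to 184 CPM in controls and from 199 through 219 to 243 CPM in labelled knockouts, the 1 gene of the set with no overlap, which 7.88% of all genes had (log2 change 0.47, SE 0.07, adjusted p = 0.000291). Aacs, which activates acetoacetate for lipid synthesis, ran from 120.3 through 160.3 to 217 CPM and from 71.6 through 92.2 to 170.0 CPM (log2 change -0.66, SE 0.19, adjusted p = 0.0234). Insig2 ran from 234 through 325 to 382 CPM and from 168 through 207 to 253 CPM (log2 change -0.64, SE 0.13, adjusted p = 0.00262). The groups overlapped for both. Tmem97 ran from 93.5 through 105 to 115 CPM and from 68.5 through 84.5 to 106 CPM (log2 change -0.29, SE 0.10, adjusted p = 0.0417), also with overlap. The count of 4 was 2 without control replicate 1 and 2 without labelled knockout replicate 5, since Aacs and Tmem97 lost their calls. Tmem97 also lost its call without control replicate 3, 5 or 6 or labelled knockout replicate 1, 2 or 6. Aacs also lost its call without labelled knockout replicate 3. Tm7sf2 gained a call without control replicate 6, and Insig1 without labelled knockout replicate 6. Ebp and Insig2 were called with each liver left out. The enzymes from squalene to lanosterol stood between -0.06 and 0.10. Beside these values all 5 hepatocyte markers were higher in labelled knockouts (sums of 85736 to 100495 CPM against 58644 to 81902 CPM), 4 of 6 macrophage markers were lower (43.2 to 60.8 against 61.7 to 99.0 CPM) and 3 of 4 blood markers were higher (159.7 to 779 against 159 to 234 CPM). Their part in the result was not tested.

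In the other 4 comparisons of labelled knockout with control no gene of the set was called by edgeR, and most values were positive. In HFCF males 0 were called, where 2.21% of all 14685 genes tested were called. An unadjusted p under 0.05 was found for 15 of the 28 genes and for 2085 of all genes. DESeq2 called 3, and its share over all genes is not given here. Over the 28 genes, the median log2 change was 0.39, against -0.01 over all genes, and 26 of 28 values were positive. The smallest p belonged to Msmo1, Idi1 and Fdft1. Msmo1 ran from 29.6 through 44.1 to 46.6 CPM in controls and from 44.2 through 56.5 to 95.3 CPM in labelled knockouts (log2 change 0.65, SE 0.19, adjusted p = 0.0935). Idi1 ran from 7.32 through 14.1 to 15.6 CPM and from 13.3 through 20.9 to 49.9 CPM (log2 change 1.005, SE 0.29, adjusted p = 0.0969), and Fdft1 from 55.6 through 65.1 to 70.6 CPM and from 66.6 through 80.1 to 106 CPM (log2 change 0.37, SE 0.11, adjusted p = 0.105). In each the groups overlapped, as they did for all 28 genes, where 2.35% of all genes did not overlap. Without control replicate 1 the count was 6, among them Fdft1, Tm7sf2, Msmo1, Nsdhl and Acss2, and without labelled knockout replicate 6 it was 1, Aacs. The shares of all genes called in these fits are not given here. Control replicate 1 had the lowest macrophage marker sum (88.8 CPM) and the highest hepatocyte marker sum (59522 CPM) of its group, and was the highest liver of its group for 14 of the 28 genes.

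In HFCF females 0 were called, where 0.0534% of all 14980 genes tested were called. An unadjusted p under 0.05 was found for 16 of the 28 genes and for 1340 of all genes. DESeq2 called 3, and its share over all genes is not given here. For the set, the median log2 change was 0.38 against 0.00 over all genes. In 7 genes (Pmvk, Mvd, Msmo1, Nsdhl, Dhcr7, Insig1 and Mmab) every labelled knockout liver lay above every control liver, where 5.59% of all genes did not overlap. The 3 with the smallest p were Msmo1, Pmvk, the phosphomevalonate kinase, and Nsdhl. Msmo1 measured 46.9, 37.3, 46.9 and 42.7 CPM in controls and 57.5, 71.3, 76.0 and 60.8 CPM in labelled knockouts (log2 change 0.64, SE 0.12, adjusted p = 0.127). Pmvk measured 32.2, 23.5, 27.1 and 30.7 CPM and 55.8, 40.9, 41.0 and 38.9 CPM (log2 change 0.66, SE 0.14, adjusted p = 0.246), and Nsdhl 31.5, 22.9, 29.1 and 26.3 CPM and 33.4, 37.6, 39.6 and 40.2 CPM (log2 change 0.48, SE 0.11, adjusted p = 0.364). Labelled knockout replicate 1 stood apart in its markers, with a hepatocyte marker sum of 105836 CPM against 59131 to 75115 CPM in the other 3 livers and a macrophage marker sum of 114 CPM against 172 to 257 CPM. Without it 1 gene, Msmo1, was called (adjusted p = 0.0431). Of the 8 LXR genes 0 were called, with a median log2 change of -0.26. Their sum was lower in every labelled knockout liver (757 to 956 CPM) than in every control liver (999 to 1208 CPM). These sums overlapped in each other comparison with the knockout label. They ran from 904 to 1206 CPM in HFCF male controls and from 755 to 1008 CPM in labelled knockouts. In HF females they ran from 890 to 970 and from 754 to 973 CPM, and in HF males from 778 to 886 and from 748 to 925 CPM. In LF females the median was higher in labelled knockouts (982 CPM) than in controls (914 CPM). The part of these values in the result was not tested. In the authors' deposited table Pmvk, Msmo1 and Nsdhl passed an adjusted p under 0.05 in this comparison, and Msmo1 and Nsdhl did in HFCF males. The authors' shares over all genes are not given here.

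In LF females 0 genes were called by edgeR or DESeq2, where 0% of all 14285 genes tested were called by edgeR. The lowest edgeR adjusted p of the set was 0.9996. An unadjusted p under 0.05 was found for 15 of the 28 genes and for 355 of all genes. The median log2 change was 0.52, against 0.01 over all genes. Hsd17b7 measured 45.5, 64.6, 64.4 and 60.2 CPM in controls and 87.0, 99.7, 74.4 and 69.8 CPM in labelled knockouts (log2 change 0.51, SE 0.14), and Mmab 23.9, 30.4, 17.9 and 25.7 CPM and 38.2, 34.3, 33.0 and 33.7 CPM (log2 change 0.52, SE 0.15). In both every labelled knockout liver was higher, which held for 2 of the 28 genes and 1.64% of all genes. Hmgcs1 measured 112, 153, 94.6 and 114 CPM and 259.8, 182, 121 and 262 CPM (log2 change 0.82, SE 0.24), and its groups overlapped. In HF females 0 genes were called by edgeR or DESeq2, where 0% of all 14128 genes were called by edgeR. The lowest edgeR adjusted p of the set was 0.601. An unadjusted p under 0.05 was found for 2 of the 28 genes and for 1135 of all genes. The share of the set was thus not above that of all genes. Over the 28 genes, the median log2 change was 0.24, against 0.01 over all genes. The smallest p belonged to Scap, which measured 138, 145, 129 and 159 CPM in controls and 161, 185, 145 and 184 CPM in labelled knockouts (log2 change 0.26, SE 0.10), to Tm7sf2, at 123, 69.9, 142 and 148 CPM and 141, 224, 144 and 187 CPM (0.54, SE 0.23), and to Insig2, at 165, 118, 122 and 141 CPM and 69.6, 143, 50.5 and 99.2 CPM (-0.58, SE 0.27). Groups overlapped for all 28 genes, where 5.44% of all genes did not overlap.

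**Figure D3:**
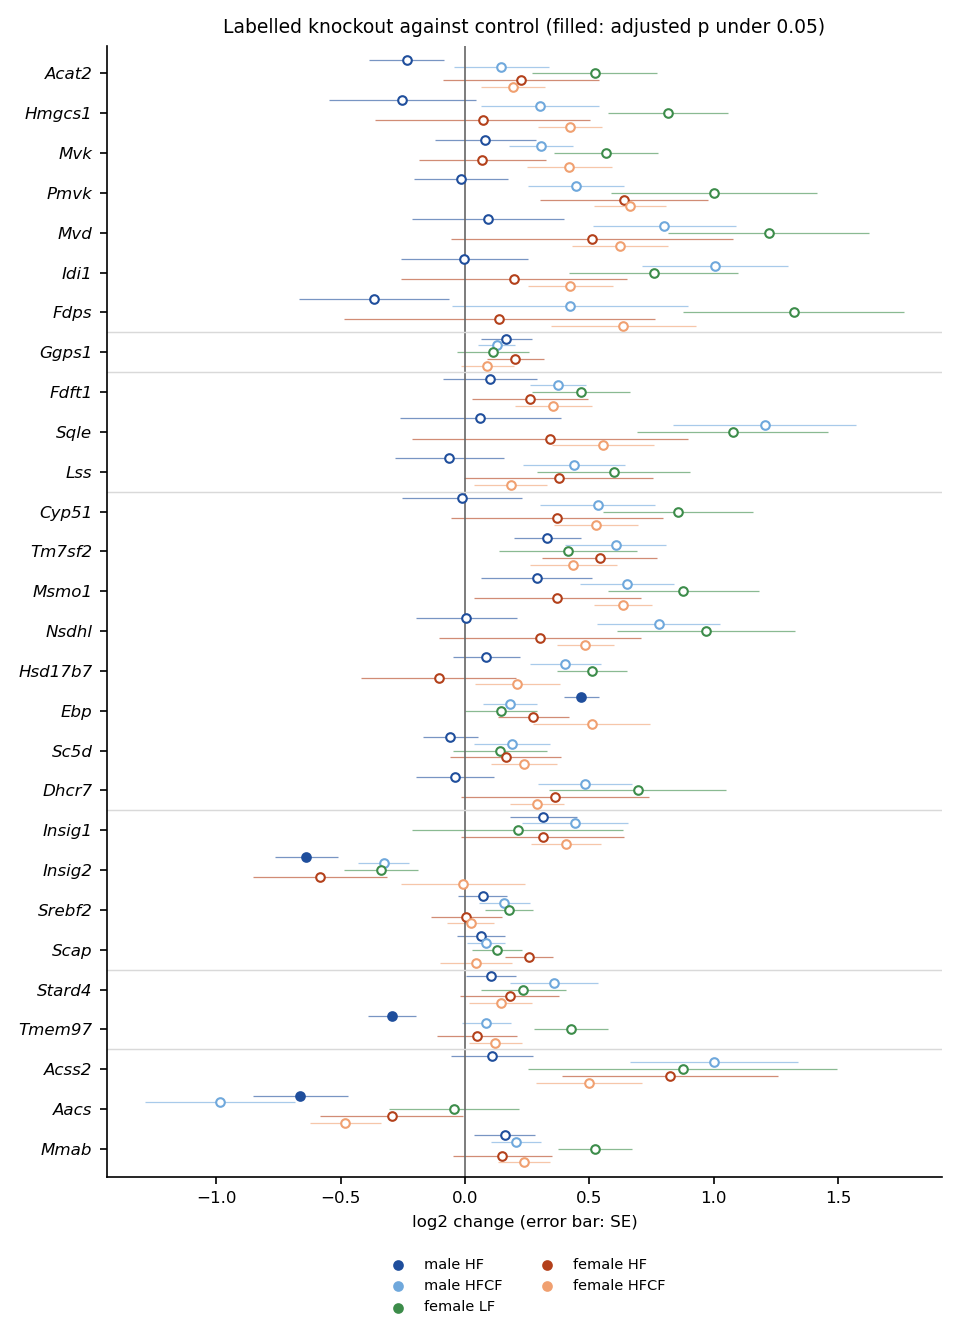
Log2 change of each gene from control to labelled knockout within each sex and diet, with the standard error; filled points passed an adjusted p under 0.05, which held for Ebp, Insig2, Tmem97 and Aacs in HF males alone. Points for most genes lie to the right of 0, and those of Insig2 and Aacs lie to the left or at 0.

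Over the 5 comparisons with the knockout label, which share no liver, 15 of the 28 log2 values were positive in all 5 and 11 in 4, and the 2 that were negative in all 5 were Insig2 and Aacs. These signs rest in part on values near 0: under every alternative fit, each leaving out 1 liver or changing 1 setting, 4 of the 15 stayed positive throughout and 0 of the 2 stayed negative throughout. The genes are not independent of one another here, as described for single livers below, so the count of genes with 1 sign is not a count of separate observations. The test of a difference between diets called 0 genes in males by edgeR or DESeq2, where 1.56% of all 15096 genes tested were called. An unadjusted p below 0.05 was found for 6 of the 28 genes and for 2574 of all genes, which are near shares. The 6 were Tmem97, Idi1, Ebp, Nsdhl, Acss2 and Sqle, with adjusted p from 0.188 for Tmem97. Idi1 had an interaction of 0.99 (SE 0.42, adjusted p = 0.222). In females the same test called 0 by edgeR or DESeq2, where 0% of all 15445 genes were called by edgeR. An unadjusted p under 0.05 was found for 0 of the 28 genes and for 667 of all genes.

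In several groups, but not in all, most genes were high or low in the same livers. In male HF controls replicate 5 was the highest of 6 livers for 17 of the 28 genes and replicate 4 the lowest for 22. In male HF labelled knockouts replicate 4 was the highest for 23, and in male HFCF labelled knockouts replicate 3 for 17. Some female groups showed it as well. HF control replicate 1 was the highest for 22 and replicate 2 the lowest for 23, and HF labelled knockout replicate 2 was the highest for 25. LF control replicate 2 was the highest for 22 and replicate 3 the lowest for 23. In female HFCF labelled knockouts replicates 1 to 4 were the highest for 10, 8, 4 and 6 genes, and replicate 1 was also the lowest for 11. In female HFCF controls replicates 1, 3 and 5 were the highest for 10, 8 and 9. In LF labelled knockouts replicates 1, 2 and 4 were the highest for 10, 7 and 11, and replicate 3 the lowest for 22. The summed level of the 28 genes spanned 2251 to 4975 CPM among the 4 female HF controls and 3036 to 5522 CPM among the 6 male HF controls.

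The spread between livers was narrowest in females on HFCF. The median coefficient of variation over the 28 genes was 15.4% in female HFCF controls and 14.7% in female HFCF labelled knockouts, against 39.0% and 35.8% in the matching HF groups. Of the 28 genes 20 had their smallest coefficient of variation in a female HFCF group and 14 their largest in female HF controls. In males it was 20.3% and 28.4% on HFCF, against 25.3% and 21.0% on HF. By gene, the median over the 10 groups was largest for Fdps (51.7%) and Mvd (46.7%) and smallest for Ggps1 (6.83%), with Scap at 9.69% and Srebf2 at 10.1%.

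**Figure D4:**
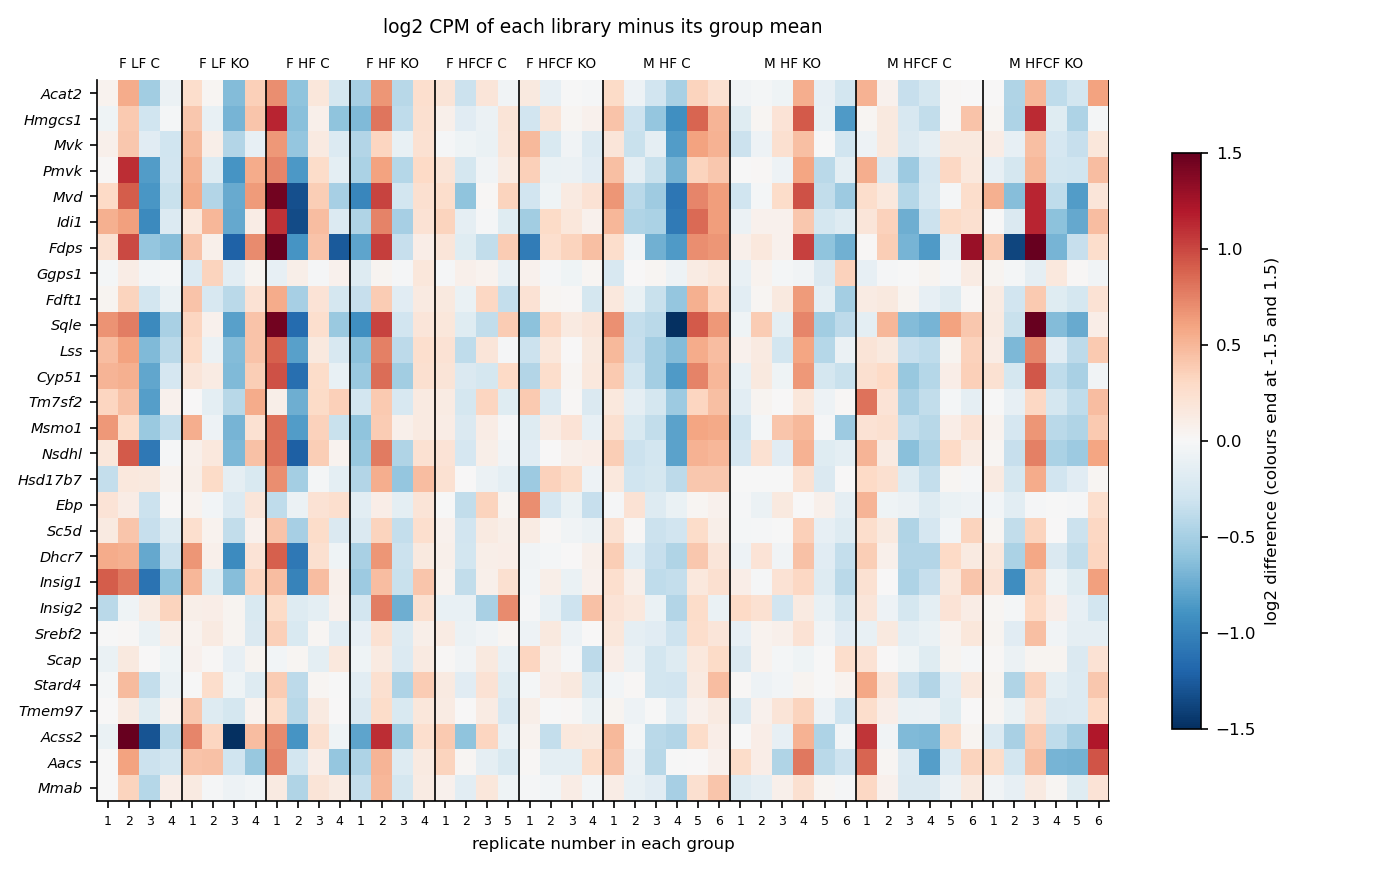
Log2 CPM of each liver minus the mean of its group, for the 28 genes in pathway order; columns are livers by replicate number, and black lines divide the groups. In some livers 1 colour runs through most rows, as in female HF control replicates 1 and 2 and male HF control replicates 4 and 5. The row of Ggps1 is pale.

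SREBP1, a related factor, drives genes of fatty acid synthesis. The liver with the highest summed level of the 28 genes had the highest sum of 10 lipogenic genes in 6 of the 10 groups, and the liver with the lowest sum had the lowest in 6. For 10 clock genes the liver highest for the 28 genes had the lowest sum in 5 groups and the highest in 2. For depth, it had the fewest reads in 2 groups and the most in 1. The part of these measures in the spread was not tested.

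Genes next to the pathway were counted on the same comparisons of HFCF with HF. Their counts are given for control males, labelled knockout males, control females and labelled knockout females, in which 13%, 21.6%, 16.9% and 8.44% of all genes tested were higher and 9.31%, 20%, 13.8% and 6.01% lower. Of 10 genes of SREBP processing and sterol sensing, 1 was higher in control males, 2 were higher and 1 lower in labelled knockout males, 1 was higher in control females and 0 were called in labelled knockout females, which is near the shares over all genes. The gene that led was Rnf145, a ubiquitin ligase linked to SCAP, at 0.66 (SE 0.07, adjusted p = 0.000206) in control males and 0.90 (SE 0.10, adjusted p = 0.00446) in control females. Of 10 genes of prenylation, dolichol and ubiquinone synthesis, which use the same isoprenoids, 0, 4, 3 and 1 were lower in the same order of groups and 0 were higher, with Rabggta, a subunit of the Rab prenylating enzyme, at -0.46 (SE 0.07) in labelled knockout males and -0.54 (SE 0.11) in control females.

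Of 8 LXR genes, which answer to oxysterols, 4, 3, 3 and 2 were higher and 0, 1, 0 and 0 lower. Abcg1, a sterol exporter, led in all 4 pairs with log2 changes of 1.29 (SE 0.16), 1.36 (SE 0.12), 1.80 (SE 0.27) and 1.25 (SE 0.36). Of 15 genes of sterol storage, trafficking and bile acid synthesis, 4, 6, 5 and 2 were higher and 3, 3, 3 and 2 lower, with the sterol transfer protein gene Gramd1b at 1.68 (SE 0.15), 1.76 (SE 0.12), 1.85 (SE 0.32) and 1.49 (SE 0.22). Of 10 lipogenic genes of SREBP1, 1, 6, 4 and 2 were higher and 3, 0, 0 and 0 lower. Scd1, the stearoyl-CoA desaturase, was higher by 1.06 (SE 0.18), 1.85 (SE 0.20), 3.11 (SE 0.73) and 1.97 (SE 0.27) in the same order.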

How the data were processed

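Whole liver RNA was sequenced from non-stranded libraries, per the labels' protocols. Per the submitters' processing notes, STAR 2.6.1, HTSeq 0.6.1 and DESeq2 (version 2 as listed) were used with GRCm38 (mm10). The authors deposited 11 tables, 1 for each of their comparisons, which hold raw read counts per gene, the authors' FPKM, the authors' normalised signal, and the authors' log2 fold changes and p-values. The raw counts were joined by gene identifier: 1341082 repeated values were compared and 0 differed. FPKM served to compare levels between genes, and the normalised signal was not analysed here.

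The counts were tested with edgeR 4.0.16 in R 4.3.3: TMM scaling, filterByExpr, the quasi-likelihood F test on the 2 groups compared (4 for interactions), and Benjamini-Hochberg adjustment over all genes tested, with 0.05 as the threshold. CPM used TMM factors over all 48 libraries. For each comparison the text names up to 5 called genes with the largest changes, the uncalled genes of steps that were mostly called, and, with 0 called, the 3 with the smallest p. Counts of called genes and the genes' values were recomputed with DESeq2 1.42.0, other scalings, filters and fits, and without each liver. Shares over all genes are given for the edgeR fits with all livers, and not for these alternatives or the authors' own results. The edgeR fit was also run on counts simulated for some of the comparisons, and the outcome is not given here. In those counts the genes varied independently, which was not so in several groups of livers. The members and lists were chosen with earlier results of these data known. Each male group held 6 libraries and each female group 4, with 15338239 to 22072884 reads on genes. Promoter windows came from RefSeq.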

Additional observations from a re-analysis of the deposited data

Results flagged for a closer look

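In 14 of the 290 sets of group values, 1 liver stood apart from its group by more than Dixon's 95% critical value, where about 14.5 would be expected at 1 in 20. The livers recur. Male HF labelled knockout replicate 4 was high for Acat2 at 134 CPM (nearest other liver 89.8), Pmvk at 67.2 CPM (45.1), Fdps at 28.05 CPM (15.3) and Sc5d at 853 CPM (662). Male HFCF labelled knockout replicate 3 was high for Hmgcs1 at 353 CPM (166), Fdps at 17.7 CPM (6.83), Sqle at 83.6 CPM (32.2) and Srebf2 at 103 CPM (77.7). Ebp was high in male HFCF control replicate 1 at 168 CPM (113) and in male HFCF labelled knockout replicate 6 at 159 CPM (134). In females, Pmvk was high in HFCF labelled knockout replicate 1 at 55.8 CPM (41.0), Ggps1 in LF control replicate 2 at 12.6 CPM (11.4), Dhcr7 was low in HFCF control replicate 2 at 58.8 CPM (74.9) and Mmab was low in HF control replicate 2 at 29.6 CPM (44.0).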

How the results depend on the processing

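Of the 185 log2 values with an unadjusted p under 0.05, 0 changed sign among the alternatives run, while 110 of the other 291 did in at least 1 fit. Of the called values, 1313 alternatives kept the call and 177 lost it. In control males on HFCF against HF all 25 calls held under every alternative, with 25 to 26 called on leaving out 1 liver; in labelled knockout males 22 of 25 did (22 to 25). For HFCF against HF in control females the count was 7 to 16 with 1 liver left out, and in labelled knockout females 6 to 16. With DESeq2 the count was 3 for labelled knockouts against controls in HFCF males, 3 in HFCF females, 8 for HF against LF in control females, 1 in labelled knockout females and 9 for HFCF against LF in labelled knockout females. With all groups in 1 fit it was 2 for labelled knockouts in HF males, 1 in HFCF males, 5 for HF against LF in control females and 2 for HFCF against LF in labelled knockout females. With no filter on low counts it was 2 and 1 for HF against LF in control and labelled knockout females, and 10 for HFCF against LF in labelled knockouts. Shares over all genes are not given for these settings, and the cause was not tested.

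With 1 liver left out the count was 2 to 4 for labelled knockouts in HF males, 0 to 6 in HFCF males, 0 to 1 in HFCF females, 0 to 1 for HF against LF in control females, 3 to 5 and 1 to 8 for HFCF against LF in control and labelled knockout females, and 0 to 4 for diet by sex in controls. Replicate numbers were not treated as pairs: deviations of same-numbered livers correlated at 0.342 at most, and in no comparison did every pair exceed 0.1. The animal numbers in the labels do not follow the replicate numbers across groups. Pairing or cohorts by animal number were not tested, and this check cannot show them. With the replicate block the count was 1 for labelled knockouts in HFCF males, 0 for HFCF against HF and 0 for HFCF against LF in control females, and 3 for HFCF against LF in labelled knockout females.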
